A study of Mus musculus with 20 samples.

Results

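The protein-coding genes that lie within 5 Mb of Rab22a on mouse chromosome 2 were described in the abdominal aorta, without Rab22a itself. They are the coding genes of GENCODE release M21 (mm10) that overlap chr2:168659760-178707343. Genes were taken by position, but the window itself was chosen with earlier results of these data known. They number 94, and 91 of them are among the 20828 protein-coding genes with values. Of the 94, 31 lie before Rab22a, 13 lie after it up to Edn3, 45 form a zinc finger gene cluster at chr2:175010241-178078476, and 5 lie beyond that cluster.

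The libraries came from abdominal aortas of C57BL/6 mice in 4 groups of 5 mice. The groups were Rab22a wild type mice given saline, wild type mice given angiotensin II (AngII, 500 ng/kg/min), Rab22a knockout mice given saline, and knockout mice given AngII, each treated for 14 days. Total RNA was sequenced after ribosomal RNA had been removed. The labels give no age, sex, breeding scheme or targeting strategy and name no batch.

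The window joins genes of unlike function. Tandem zinc finger genes of the KRAB type arose by repeated duplication, and their proteins bind DNA through arrays of C2H2 fingers and recruit the corepressor Trim28, in many cases to silence mobile elements. Gnas, on the same side of Rab22a, encodes the stimulatory G protein subunit that couples receptors to adenylyl cyclase, and it is an imprinted locus with several alternative starts.

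The cluster was zinc finger coding by sequence as well as by name. In the annotated transcripts, 40 of its 45 genes held a reading frame with at least 3 copies of the finger pattern (2 cysteines 2 residues apart and 2 histidines 3 to 5 residues apart, with 12 residues between the pairs), with a median of 11 fingers per gene and a highest count of 25. Among the 49 other genes 5 did, namely Ctcfl, Sall4, Tshz2, Zfp217 and Zfp64.

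The 5 cluster promoters compared were close copies of each other, with identities of pairs from 93.8% to 100%. The 250 bases before the annotated start are shown for the 3 zinc finger genes that were called higher in knockout aorta, to let their likeness be seen beside their values. Sequences are from RefSeq (GRCm38.p6, which has the mm10 coordinates), 5′ to 3′, with capitals for the 14 letters shared most widely within the cluster. Zfp971 lies on the + strand at chr2:178023034-178023283, Zfp973 on the + strand at chr2:176670272-176670521 and Gm2007 on the + strand at chr2:175737624-175737873. The RefSeq start of Gm2007 is 3663 bases from its GENCODE start.
Zfp971: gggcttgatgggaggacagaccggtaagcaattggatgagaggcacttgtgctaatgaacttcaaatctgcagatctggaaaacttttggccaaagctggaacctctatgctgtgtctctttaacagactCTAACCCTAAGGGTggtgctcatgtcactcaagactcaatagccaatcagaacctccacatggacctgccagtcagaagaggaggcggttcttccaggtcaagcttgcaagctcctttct
Zfp973: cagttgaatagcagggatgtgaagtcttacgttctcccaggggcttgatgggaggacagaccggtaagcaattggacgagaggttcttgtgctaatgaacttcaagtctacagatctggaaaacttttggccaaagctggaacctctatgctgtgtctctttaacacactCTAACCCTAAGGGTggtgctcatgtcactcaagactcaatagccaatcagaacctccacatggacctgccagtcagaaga
Gm2007: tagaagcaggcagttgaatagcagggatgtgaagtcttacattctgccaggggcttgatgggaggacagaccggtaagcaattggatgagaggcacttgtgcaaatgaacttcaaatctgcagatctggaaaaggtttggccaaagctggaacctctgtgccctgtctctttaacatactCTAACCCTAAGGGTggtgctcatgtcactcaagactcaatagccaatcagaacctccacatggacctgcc
At the best ungapped alignment Zfp971 and Zfp973 were identical at 204 of 210 bases (97.1%), Zfp971 and Gm2007 at 193 of 200 (96.5%) and Zfp973 and Gm2007 at 226 of 240 (94.2%). Genes that were not called were as alike: Gm14434, with the lowest difference of the tested cluster genes under AngII, matched Gm2007 at 182 of 182 bases and Zfp971 at 96.6%. Zfp970 (-0.06 ± 0.14 over both treatments, adjusted p = 0.852) matched Zfp971 at 97.5% and Zfp973 at 99.5%. RefSeq windows matched 65 of the 94 genes by symbol. Read on both strands, the word CTAACCCTAAGGGT stood in 33 of the 36 windows of cluster genes, in 0 of 42 windows of the other genes near Rab22a, and in 33 of all 32851 mouse windows (0.1%), so every window that held it belonged to the cluster. It was picked because it was the most shared word. A CCAAT word was in 34 of the 36 cluster windows, in 13 of the 42 others and in 33.8% of all windows, and TATAAA was in 1, in 3 and in 12.4%. These matches describe letters only.

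The likeness extended to the transcripts. Of all stretches of 50 bases in a cluster gene's transcripts, a median of 88.6% also occurred in another gene, with a range from 13.7% to 100%, and 10 cluster genes had no stretch of their own. Outside the cluster the highest share was 4.16%. How reads were divided among near-identical genes is not given in the sources used here, so the value of a single cluster gene is uncertain, and the summed value of the cluster is given beside it.

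Values are FPKM, that is reads scaled to the length of the transcript and to the reads of the library, summed over the annotated transcripts of a gene. Of the 94 genes, 91 had values and 57 reached 1 FPKM in at least 5 of the 20 libraries, 16 before Rab22a, 11 after it up to Edn3, 27 in the cluster and 3 beyond. Only those 57 were tested, and no count over them stands for all 94. The other 34 had means from 0.00328 to 0.795 FPKM and included Bmp7 (a bone morphogenetic protein), Cyp24a1 (the vitamin D hydroxylase), Mc3r (a melanocortin receptor), Spo11 (the meiotic break enzyme) and Ctcfl (a testis paralogue of Ctcf). Gm11011, 4930470P17Rik and Gm14435 had no values. The genes nearest to the target were nearly silent: Ankrd60, the nearest before Rab22a, had a mean of 0.0772 FPKM, and 1700010B08Rik, 12.07 kb after it, had a mean of 0.00518 FPKM. Ankrd60 ran from 0 to 0.476 FPKM in wild type and from 0 to 0.0482 in knockout. Tfap2c, 1.10 Mb before Rab22a, ran from 0.0176 to 0.173 FPKM in wild type and stood at 0 in every knockout library. Gm14409 of the cluster went the other way, at 0 in every wild type library and up to 0.229 FPKM in knockout. These 3 genes had means of 7 reads or fewer per library and were not tested.

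Group means were compared with limma on log2(FPKM + 1) in 1 fit of 15010 genes, and a gene was called at an adjusted p under 0.05 (Benjamini-Hochberg, over all genes tested). Differences are log2 values on that scale ± SE, which understates the change of low genes. The p-values set a difference of group means against the spread between mice within groups. That spread is 1 estimate per gene, shared by all 4 groups. The depth implied by the values ran from 68789610 to 77325932 reads per library. Transcript models above 0 numbered from 81734 to 92523 in wild type libraries and from 74093 to 83057 in knockout libraries. The part of this difference in the values of genes with few reads was not tested. Tested cluster genes rested on a median of 160 reads per library and the other tested genes near Rab22a on 1911.

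As a check of the labels, the Rab22a transcript ENSMUST00000029024 ranged from 1.87 to 8.62 FPKM in the wild type libraries and from 0 to 0.00563 in the knockout libraries. Another annotated Rab22a transcript, ENSMUST00000142820, ranged from 0.162 to 3.61 FPKM in wild type and from 7.43 to 11.1 in knockout. The lowest wild type values of the first were 2.34 in WT saline 4 and 1.87 in WT AngII 2, and results are also given without these libraries where that changes a call. Smooth muscle markers were present in every library (7 of 7 genes tested, summed 1246 to 6457 FPKM). The tissue also held other cells: skeletal muscle markers summed to between 3.09 and 5076 FPKM and T and NK cell markers to between 3.0 and 252 FPKM. In bulk tissue, fewer cells of a type and less RNA per cell cannot be told apart.

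Knockout and wild type aortas differed at few genes of the window. Averaged over both treatments, 4 of the 57 tested genes were called, against 4.15% of all genes tested. Zfp971, Zfp973 and Gm2007 of the cluster were higher in knockout (0.953% of all genes were called higher), and Nelfcd was lower (3.20% were called lower). Under AngII 2 of 57 were called, Zfp971 higher and Nelfcd lower, against 1.83% of all genes (0.393% higher and 1.44% lower). Under saline 0 of 57 were called, against 0.0133% of all genes (0% higher and 0.0133% lower), with 5 of the 57 and 1106 of all genes at an unadjusted p under 0.05 by limma. The shares of genes called near Rab22a, 7.02% over both treatments and 3.51% under AngII, rest on 4 and 2 genes.

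**Figure D1:**
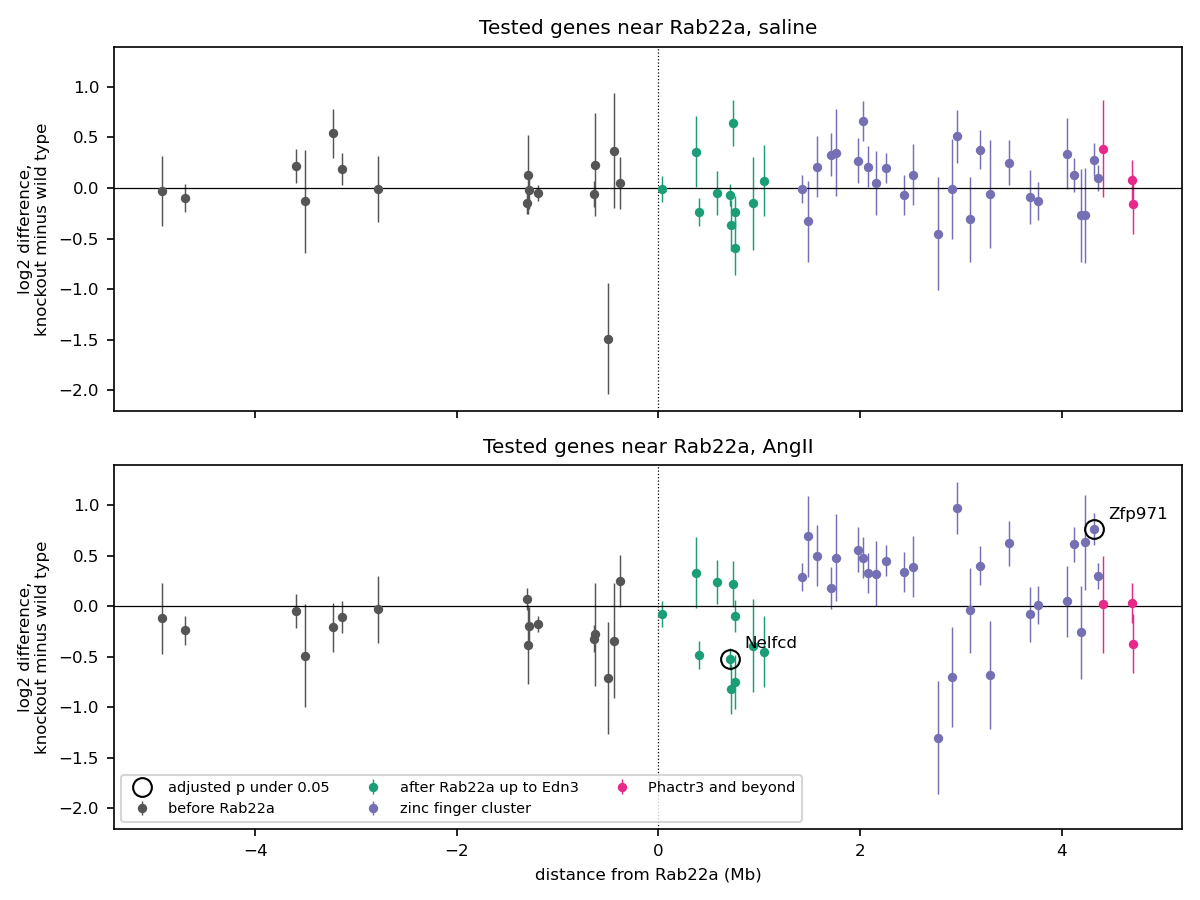
Log2 difference of knockout minus wild type (vertical axis, ± SE) for the 57 tested genes against distance from Rab22a in Mb, under saline (top) and AngII (bottom); colours mark position and circles mark genes called. Zfp971 (0.76) and Nelfcd (-0.52) are circled under AngII. There 21 of 27 cluster genes lie above 0, while 14 of 16 genes before Rab22a and 8 of 11 between Rab22a and the cluster lie below. Of all 15010 genes tested 9303 also lay below 0 under AngII (median -0.10). Quantile normalization moved that median to 0.03.

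Leaving libraries out moved these counts. Over both treatments the count ran from 1 to 10 of 57 with each library left out in turn, and was highest without KO saline 1. It was 1 without WT saline 4, WT AngII 2, KO saline 5 or KO AngII 3, and 2 without WT saline 3, WT AngII 1, WT AngII 4, KO saline 4 or KO AngII 1. Under AngII it ran from 0 to 3 and was 0 without WT AngII 1, 2 or 4 or KO AngII 3. Without both wild type libraries of low Rab22a it was 0 in each comparison, when 167 genes were called over both treatments and 4 under AngII among all genes tested. For the fits with a single library left out, the number of all genes called is not given here. Those counts therefore stand without a background and show no gain or loss particular to the window.

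Zfp971, at chr2:178023284-178034022 near the far end of the cluster, encodes a zinc finger protein. It measured 5.88, 5.98, 5.57, 5.22 and 4.64 FPKM in wild type aortas under saline and 3.25, 3.28, 4.75, 3.31 and 5.04 FPKM under AngII. In knockout aortas it measured 5.04, 5.91, 7.20, 7.66 and 8.75 FPKM under saline and 8.45, 5.64, 8.82, 6.15 and 7.66 FPKM under AngII. All knockout values under AngII lay above all wild type values under AngII, while the saline groups overlapped. The difference was 0.76 ± 0.16 under AngII (adjusted p = 0.0276), 0.28 ± 0.16 under saline (adjusted p = 0.731) and 0.52 ± 0.11 over both treatments (adjusted p = 0.0156). The call over both treatments was kept with each of the 20 libraries left out in turn (adjusted p from 0.00796 to 0.0367), but not without both wild type libraries of low Rab22a (0.49, adjusted p = 0.0603). The AngII call was lost without any of WT AngII 1, 2 or 4 or KO AngII 1, 3 or 5 (0.70 to 0.74, adjusted p up to 0.0965), and in a fit of the AngII groups alone (adjusted p = 0.0722). The genotype difference was 0.49 ± 0.22 larger under AngII than under saline, which was not called (adjusted p = 0.995). Of its main transcripts, ENSMUST00000108925 ran from 1.76 to 3.48 FPKM in wild type and from 2.54 to 5.53 in knockout, and ENSMUST00000108926 from 0.876 to 2.75 and from 2.20 to 4.33.

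Zfp973, at chr2:176670522-176719085, lies in the middle of the cluster and also encodes a zinc finger protein. Wild type aortas had 3.75, 3.29, 4.79, 1.63 and 2.28 FPKM under saline and 0.956, 0.846, 4.03, 2.29 and 3.11 FPKM under AngII. Knockout aortas had 4.46, 4.92, 4.86, 4.00 and 5.39 FPKM under saline and 5.35, 3.51, 4.75, 5.32 and 5.69 FPKM under AngII. The knockout values were tightly grouped and the wild type values spread widely, with WT AngII 1 and 2 the lowest, and the groups overlapped under both treatments. Over both treatments Zfp973 was 0.74 ± 0.18 higher in knockout (adjusted p = 0.0291). The call was lost without any of WT saline 4 or 5, WT AngII 1 or 2, KO saline 5, or KO AngII 1 or 3 (0.65 to 0.74, adjusted p up to 0.0601), and without both wild type libraries of low Rab22a (0.58, adjusted p = 0.0961). Its transcript ENSMUST00000108985 was listed at 0 in WT saline 4, WT AngII 1 and WT AngII 2 and ranged from 1.17 to 2.32 FPKM in knockout.

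Gm2007, at chr2:175741537-175751419, is a predicted gene of the same family whose stretches of 50 bases all occur in other genes. Its wild type values were 1.66, 1.97, 1.16, 1.03 and 2.63 FPKM under saline and 2.02, 2.06, 1.46, 1.51 and 2.12 FPKM under AngII. Its knockout values were 2.44, 2.06, 3.06, 4.26 and 4.59 FPKM under saline and 4.52, 2.46, 2.95, 2.14 and 2.98 FPKM under AngII. The AngII groups did not overlap, by a margin of 2.14 against 2.12, and the saline groups did. It was 0.57 ± 0.14 higher in knockout over both treatments (adjusted p = 0.0291), a call lost without any of WT saline 3 or 4, WT AngII 2 or 4, KO saline 4 or 5, or KO AngII 1 or 3 (adjusted p up to 0.0603), and without both wild type libraries of low Rab22a (0.54, adjusted p = 0.0899). Most of the level came from a model of 195 bases, ENSMUST00000177981, with a mean of only 26.1 reads per library. The longer model, ENSMUST00000178133 (1497 bases, 75.2 reads), ranged from 0.404 to 0.714 FPKM in wild type and from 0.567 to 1.13 in knockout.

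The FPKM sum of the cluster stood higher in knockout aorta under AngII. Summed over the cluster genes with values, wild type aortas had 82.2, 75.1, 88.5, 71.0 and 74.2 FPKM under saline and 64.9, 62.4, 78.5, 67.9 and 76.8 FPKM under AngII. Knockout aortas had 60.7, 94.2, 93.6, 89.4 and 108 FPKM under saline and 118, 84.8, 95.8, 83.1 and 111 FPKM under AngII. All 5 knockout sums under AngII lay above all 5 wild type sums under AngII, whereas under saline KO saline 1 had the lowest of all 20 sums and the groups overlapped. The mean sum was 98.5 ± 15.6 against 70.1 ± 7.19 FPKM under AngII and 89.2 ± 17.4 against 78.2 ± 7.06 FPKM under saline (SD, n = 5 each). Because FPKM divides by length, the sum still depends on which models reads were given to, and Gm14325, its largest term, rests largely on a model of 310 bases. The cluster was also counted as recovered reads in every 1000000 reads of the library, a measure without length chosen after seeing the data. By it knockout aortas ran from 93.4 to 134 and wild type aortas from 63.4 to 93.7 under AngII. These ranges overlapped, as KO AngII 4 (93.4) lay below WT AngII 3 (93.7). Under saline they ran from 73.5 to 123 and from 76.8 to 109. No test was made of either sum. Lymphoid markers stood lower in knockout under AngII: B and plasma cell markers summed to 245 to 506 FPKM in wild type and 8.11 to 286 in knockout, and T and NK cell markers to 71.5 to 141 and 3.0 to 135, with 0 of 5 genes of each list higher in knockout. Their part in the cluster level was not tested.

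**Figure D2:**
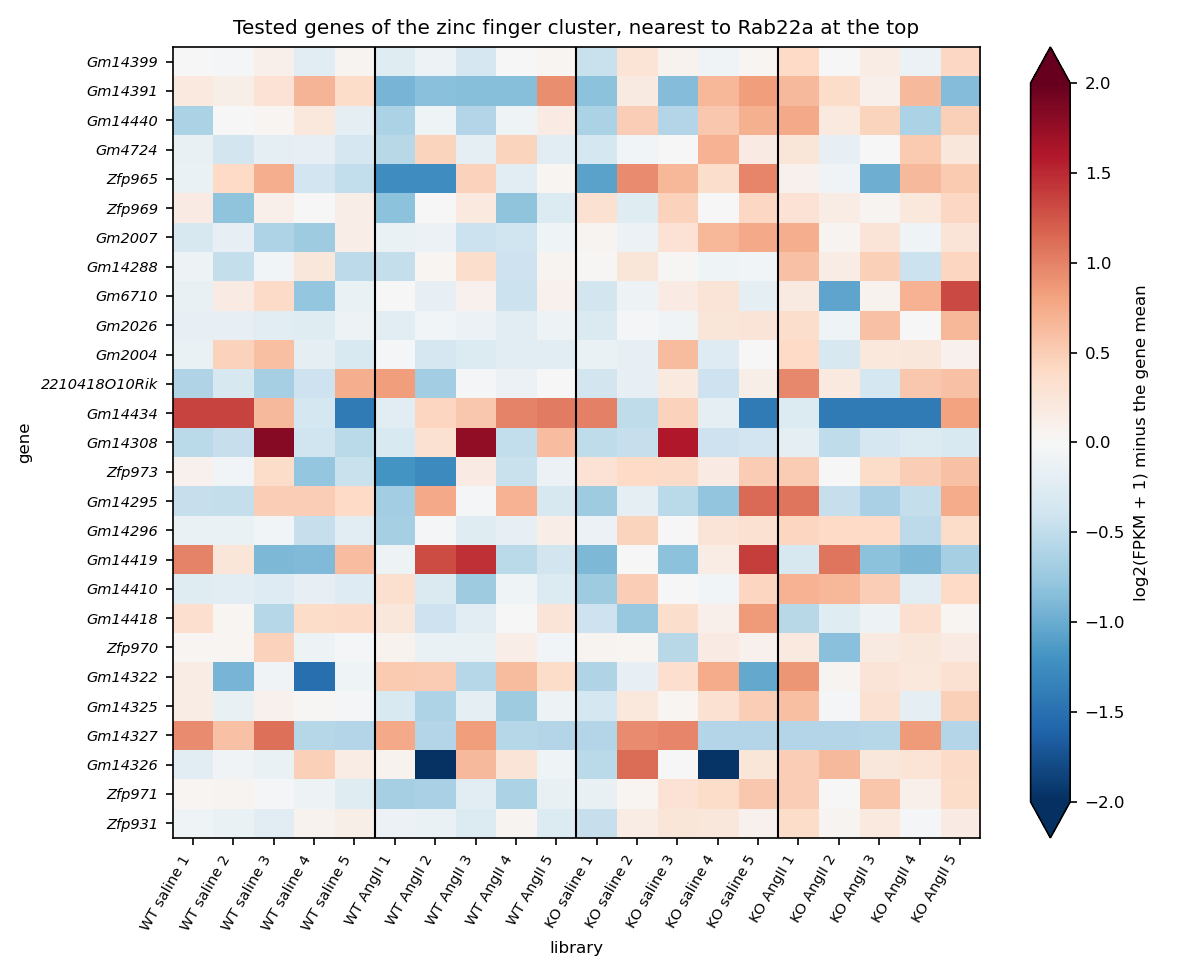
Level of the 27 tested cluster genes (rows, in order of distance from Rab22a) in the 20 libraries (columns, by group), as log2(FPKM + 1) minus the mean of the gene, with red above and blue below. Zfp971, second row from the bottom, is redder in the knockout columns, while Gm14434, Gm14308, Gm14419 and Gm14326 switch between libraries within groups.

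Gene by gene, 20 of the 27 tested cluster genes had a positive difference over both treatments with a median of 0.20, against 38.7% positive and a median of -0.07 over all genes tested. Under AngII 21 of 27 were positive (median 0.34, all genes -0.10) and under saline 16 of 27 (median 0.13, all genes -0.04). The other 30 tested genes near Rab22a had a median of -0.09 over both treatments, with 10 positive. Zfp genes elsewhere in the genome, 288 in number, had a median of 0.05, and the 993 other tested coding genes of chromosome 2 had a median of -0.06. Members of the cluster share sequence and reads and were chosen with such values known, so these medians are descriptions. The filter on low values also chose them: 7 of the 27 had fewer than 5 wild type libraries at 1 FPKM, 5 had fewer than 5 knockout libraries there, and 2 (Gm14440 and Gm2026) reached it in knockout libraries only. The counts of positive genes therefore support nothing by themselves. Quantile normalization moved the median of all genes under AngII from -0.10 to 0.03 and that of the cluster from 0.34 to 0.50. The cluster median was 0.42 over both treatments and 0.55 under AngII with a pseudocount of 0.1, and 0.46 and 0.64 with limma-voom. Under saline it was 0.21 without KO saline 1, with 20 of 27 positive.

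KO saline 1, the knockout library with the low cluster sum, also stood apart in its smooth muscle and cell cycle markers. Its smooth muscle markers summed to 1246 FPKM, the lowest of the 20 libraries, and its cell cycle markers (5 of 5 genes tested) to 52.8 FPKM, the highest. Its B and plasma cell markers summed to 420 FPKM, near the 390 FPKM of KO saline 3, whose cluster sum was 93.6 FPKM. In the other knockout saline libraries those markers summed to 5.85 to 24.6 FPKM. The part of cell content in the cluster level was not tested. Without KO saline 1, Zfp931 (0.26, adjusted p = 0.0443), Gm14410 (0.53, adjusted p = 0.0335), Gm14325 (0.43, adjusted p = 0.0341) and Gm2026 (0.36, adjusted p = 0.0443) were called higher in knockout over both treatments.

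With all libraries these were not called. Gm14325, the most abundant cluster gene with a mean of 17.7 FPKM, had 15.3 ± 2.98 FPKM over wild type libraries and 20.1 ± 4.37 over knockout libraries (SD, n = 10 each), a difference of 0.37 ± 0.12 (adjusted p = 0.0936); much of its level came from a model of 310 bases. Gm14410 had 6.78 ± 1.41 and 9.82 ± 3.0 FPKM, a difference of 0.44 ± 0.16 (adjusted p = 0.124). Zfp931, the cluster gene nearest to Phactr3 and among those with the most sequence of their own (23.3% of stretches shared), had 7.65 ± 0.837 and 8.99 ± 1.40 FPKM, a difference of 0.20 ± 0.09 (adjusted p = 0.239). Gm2026 had 0.842 ± 0.0835 and 1.35 ± 0.523 FPKM (0.32 ± 0.10, adjusted p = 0.0846). It reached 1 FPKM in 6 knockout and 0 wild type libraries, so it entered the test only through the group in which it is high.

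Some cluster genes switched between libraries within groups. Gm14434 ranged from 0 to 5.83 FPKM and was listed at 0 in WT saline 5, KO saline 5 and KO AngII 2, 3 and 4, that is in 1 of 10 wild type and 4 of 10 knockout libraries. Gm14308 stood at 5.06 FPKM in WT saline 3, 4.84 in WT AngII 3 and 4.17 in KO saline 3, and at 1.61 FPKM or less in the other 17 libraries. Their main transcripts, ENSMUST00000120959 and ENSMUST00000119149, are both 1458 bases long and differ at 2 bases, positions 564 and 565 counted from the 5′ end. Gm14434 had the lowest difference of the tested cluster genes under AngII, at -1.30 ± 0.56 (adjusted p = 0.241), and a difference of -0.87 ± 0.40 over both treatments (adjusted p = 0.225). The pair summed to 1.66 to 7.70 FPKM in wild type and 0.202 to 4.05 in knockout under AngII, so the groups overlapped as a pair too.

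**Figure D3:**
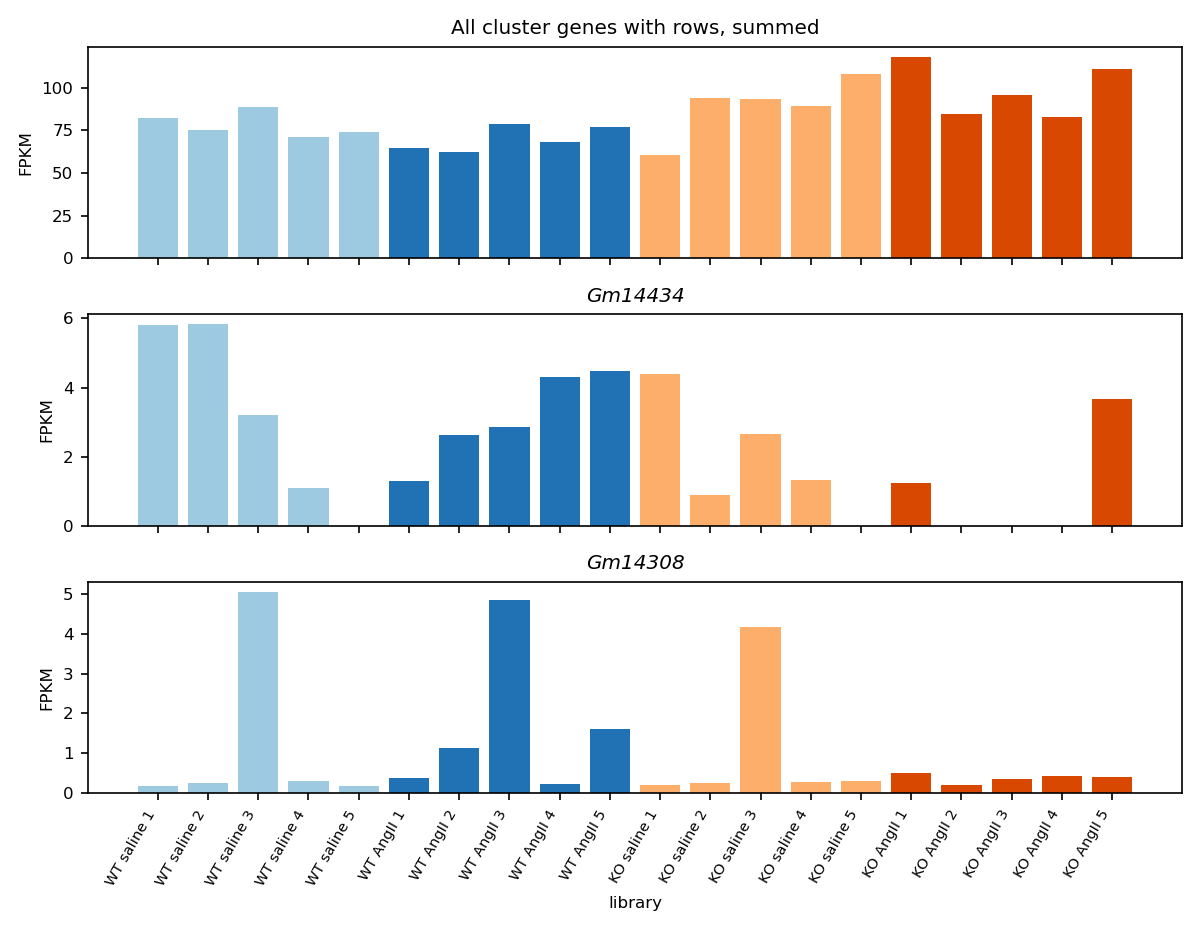
FPKM in each of the 20 libraries, coloured by group, for all cluster genes with values summed (top) and for Gm14434 and Gm14308, whose main transcripts differ at 2 bases. The 5 knockout AngII sums run from 83.1 to 118 against 62.4 to 78.5 in wild type under AngII, while Gm14308 is high in 3 libraries of 3 different groups.

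The repression machinery that KRAB zinc finger proteins use, which lies outside the window, had no member called. The list of 16 genes also holds Zfp57 and Zfp809, which are KRAB zinc finger genes themselves. Of the 16, 15 were tested and 0 were called in any knockout comparison by limma. Of all genes tested 4.15% were called over both treatments, 1.83% under AngII and 0.0133% under saline. With shares this small, 0 of 15 says little about the list. Over both treatments 6 were higher and 9 lower in knockout, with a median of -0.03 and a range from -0.39 to 0.40. Trim28, the corepressor itself, had 30.6 ± 5.47 FPKM over wild type libraries and 25.7 ± 9.35 over knockout libraries (SD, n = 10 each), a difference of -0.30 ± 0.17 (adjusted p = 0.324).

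Nelfcd was the called gene outside the cluster. It encodes a subunit of the negative elongation factor, which holds RNA polymerase II near promoters, and lies 708.5 kb after Rab22a. Under saline it measured 23.8, 21.4, 25.1, 22.4 and 19.9 FPKM in wild type and 22.4, 20, 19.4, 21.7 and 23.0 in knockout. Under AngII it measured 24.4, 25.2, 21.7, 27.5 and 25.6 FPKM in wild type and 20.5, 13.6, 17.6, 15.4 and 19.0 in knockout. The saline groups overlapped, and under AngII every knockout value lay below every wild type value. Nelfcd fell by 0.52 ± 0.11 on the log2 scale in knockout under AngII (adjusted p = 0.0276) and by 0.30 ± 0.08 over both treatments (adjusted p = 0.0345). The difference under AngII minus that under saline was -0.44 ± 0.15, which was not called (adjusted p = 0.995, unadjusted p = 0.00893 by limma). Its call under AngII was lost without any of WT AngII 1, 2 or 4 or KO AngII 2 or 3 (-0.53 to -0.44, adjusted p up to 0.0923), without both wild type libraries of low Rab22a (-0.51, adjusted p = 0.105), in a fit of the AngII groups alone (-0.52, adjusted p = 0.0862), and with scaling in the manner of TMM (-0.40, adjusted p = 0.0534) or quantile normalization (-0.36, adjusted p = 0.0745). The call over both treatments was lost in 11 of the 20 leave-outs, those of WT saline 1, 3 and 4, WT AngII 1, 2 and 4, KO saline 2, 4 and 5, and KO AngII 3 and 4. It was also lost with quantile normalization (-0.19, adjusted p = 0.141), scaling in the manner of TMM (-0.20, adjusted p = 0.140), protein-coding transcripts alone (-0.26, adjusted p = 0.0740), and without both wild type libraries of low Rab22a (-0.29, adjusted p = 0.103).

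Ctsz encodes cathepsin Z, a lysosomal protease, and overlaps Nelfcd tail to tail by 10 bases. It had 168, 151, 175, 176 and 131 FPKM in wild type under saline and 195, 102, 204, 90.5 and 75.1 in knockout. Under AngII it had 172, 198, 162, 162 and 220 FPKM in wild type and 68.3, 111, 103, 143 and 102 in knockout. The AngII groups did not overlap, while KO saline 1 and 3 were as high as wild type. The difference of -0.82 ± 0.25 under AngII was not called (adjusted p = 0.0905), nor was that of -0.60 ± 0.17 over both treatments (adjusted p = 0.0595); the latter was called without KO saline 1, KO saline 3 or KO AngII 4 (-0.69 to -0.66, adjusted p from 0.0195 to 0.0416) or with a filter at 5 FPKM (adjusted p = 0.0472). Macrophage markers (5 of 5 genes tested, 0 higher in knockout and 0 called under AngII) summed to 190 to 434 FPKM in wild type and 79.8 to 293 in knockout under AngII, and to 314 and 505 FPKM in KO saline 1 and 3 against 97.6 to 117 in the other knockout saline libraries. Their part in the Ctsz level was not tested.

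Npepl1, an aminopeptidase gene 403.0 kb after Rab22a, had 30.6, 29.6, 36.0, 41.2 and 43.2 FPKM in wild type and 33.6, 30.8, 35.8, 28.6 and 23.3 in knockout under saline. Under AngII it had 39.0, 49.2, 34.7, 42.7 and 29.3 FPKM in wild type and 24.5, 28.2, 27.2, 27.4 and 29.0 in knockout. Under AngII the groups were apart by a margin of 29.3 against 29.0. It was not called (-0.48 ± 0.14 under AngII, adjusted p = 0.0890; -0.36 ± 0.10 over both treatments, adjusted p = 0.0525), though it was over both treatments without WT saline 2, WT AngII 3 or 5, or KO saline 1 or 3 (-0.41 to -0.38, adjusted p from 0.0252 to 0.0481) and with a filter at 5 FPKM (adjusted p = 0.0404).

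Atp5e, which encodes the epsilon subunit of mitochondrial ATP synthase, had 299, 452, 274, 267 and 613 FPKM in wild type under saline and 441, 543, 380, 361 and 287 under AngII. In knockout it had 241, 307, 174, 302 and 201 FPKM under saline and 262, 362, 147, 219 and 228 under AngII. The mean was lower in knockout under each treatment, with overlap in each. The difference over both treatments of -0.67 ± 0.19 was just short of the threshold (adjusted p = 0.0515) and was past it without WT AngII 5 (adjusted p = 0.0410) or KO AngII 2 (adjusted p = 0.0322), with a filter at 5 FPKM (adjusted p = 0.0404) and with limma-voom (adjusted p = 0.0480).

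**Figure D4:**
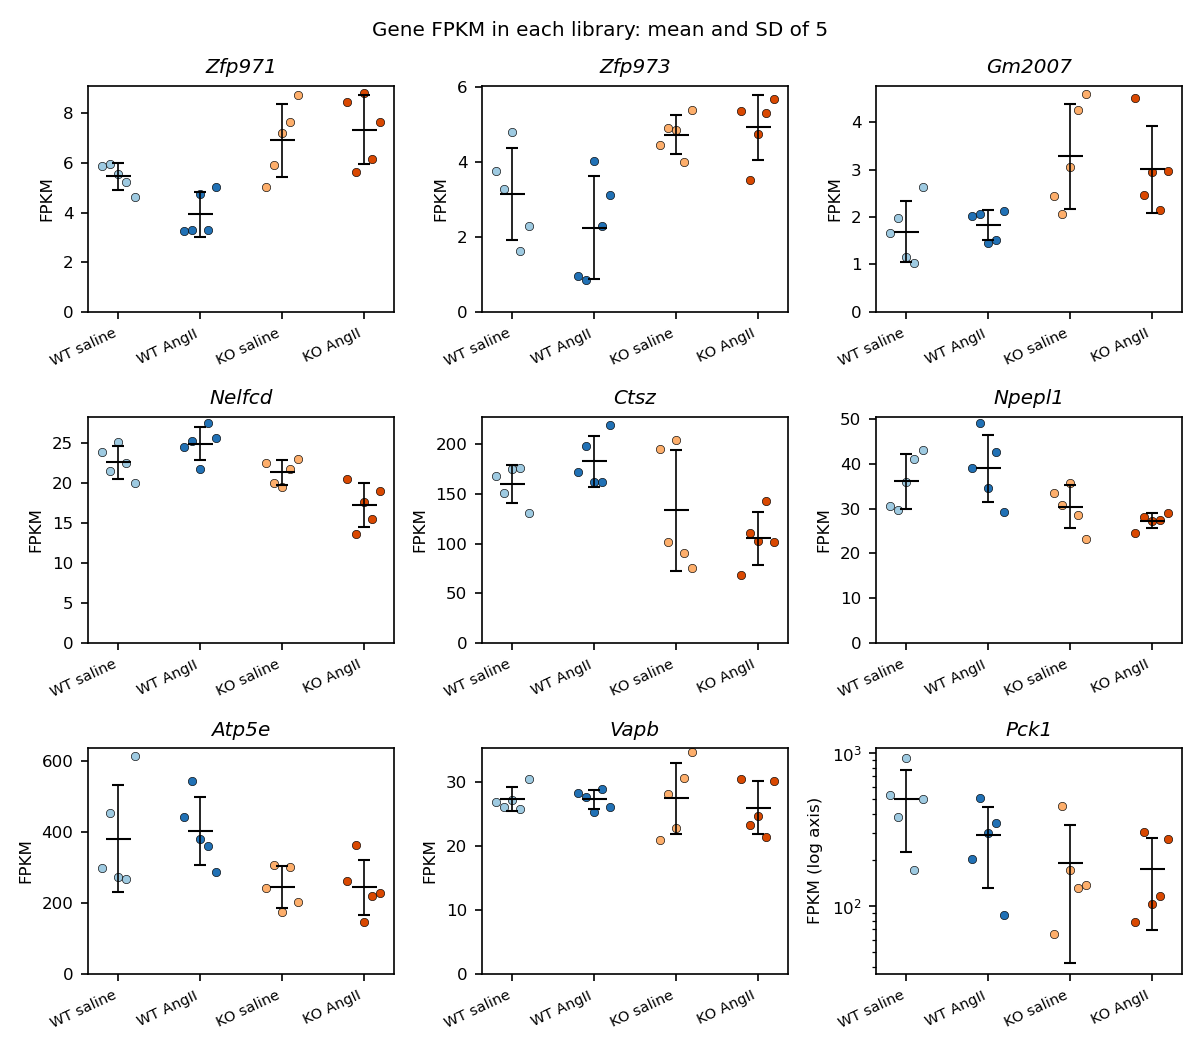
FPKM in each library (points) with the mean and SD of 5 (bars) for 9 genes near Rab22a in the 4 groups; the axis of Pck1 is logarithmic. Zfp971 and Gm2007 are higher and Nelfcd, Ctsz and Npepl1 lower in knockout under AngII without overlap, whereas the group means of Vapb, the nearest tested gene, run from 26.0 to 27.4 FPKM.

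Vapb, 30.17 kb after Rab22a, was the nearest gene that could be tested, and it encodes an endoplasmic reticulum membrane protein. It had 27.2 ± 1.89 FPKM in wild type and 27.4 ± 5.62 in knockout under saline, and 27.3 ± 1.5 and 26.0 ± 4.12 under AngII (SD, n = 5 each). The difference over both treatments was -0.05 ± 0.09 (adjusted p = 0.816). Its approximate 95% interval ran from -0.22 to 0.13. That interval uses a normal quantile and is narrower than the t distribution of the fit would give. Its sign turned under quantile normalization and scaling in the manner of TMM (0.05 each). Stx16, a syntaxin gene next in order, was listed at a mean of only 1.00 FPKM (0.35 ± 0.24, adjusted p = 0.446).

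Before Rab22a no gene was called. Pmepa1, a TGF-beta induced inhibitor of Smad signalling, had 32.2 ± 9.67 FPKM over wild type libraries and 36.3 ± 12.4 over knockout libraries (SD, n = 10 each; 0.15 ± 0.18, adjusted p = 0.678). Pck1, the cytosolic enzyme that commits oxaloacetate to gluconeogenesis and glyceroneogenesis, had 527, 382, 920, 170 and 500 FPKM in wild type and 65.3, 446, 171, 131 and 137 in knockout under saline. Under AngII it had 201, 503, 301, 349 and 86.4 FPKM in wild type and 78.8, 302, 103, 115 and 272 in knockout. Most knockout values were low, with overlap under both treatments, and the difference of -1.10 ± 0.39 over both treatments was not called (adjusted p = 0.121). Pck1 is a gene of fat, liver and kidney. White adipocyte markers (5 of 5 tested) summed to 961 to 1642 FPKM in wild type and 690 to 1493 in knockout, and brown adipocyte markers (4 of 4 tested) to 620 to 1922 and 228 to 2570. Liver and kidney markers (2 of 4 tested, the other 2 below 1 FPKM in all libraries) summed to 0.291 to 12.3 FPKM in wild type and 1.23 to 226 in knockout. Their part in the Pck1 level was not tested.

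Zbp1, a sensor of nucleic acids in Z form, Rbm38, an RNA-binding target of p53, Aurka, the mitotic kinase, and Zfp831 were highest in the same knockout libraries. KO saline 1 and 3 had 21 and 7.79 FPKM of Zbp1, against 0.556 to 1.56 in the other knockout saline libraries. Rbm38 had 36.4 and 49.9 FPKM there, against 4.84 to 8.90. Aurka had 8.81 and 3.39 FPKM there, against 0.894 to 1.19, and Zfp831 had 3.51 and 4.45, against 0.0953 to 0.225. In KO saline 1 and 3 the T and NK cell markers (5 of 5 tested) summed to 163 and 252 FPKM, against 4.44 to 12.6 in the other 3, and the cell cycle markers to 52.8 and 18.3 FPKM, against 1.68 to 2.28. The part of such cells in these levels was not tested, and none of these genes was called.

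Rtf2 and Rae1 were lower in every knockout than in every wild type aorta under AngII. Rtf2, a replication termination factor, ran from 43.5 to 50.7 FPKM in knockout and from 51.8 to 56.0 in wild type (-0.18 ± 0.08, adjusted p = 0.247). Rae1, an mRNA export factor, ran from 13.4 to 17.3 and from 17.5 to 21.2 FPKM (-0.32 ± 0.13, adjusted p = 0.214). With Npepl1, Nelfcd, Ctsz, Gm2007 and Zfp971, 7 of 57 genes had groups that did not overlap under AngII, 2 higher and 5 lower in knockout, against 5.21% of all genes (1.37% higher and 3.84% lower). Under saline 0 of 57 did, against 1.28% (0.260% and 1.02%), and with treatments pooled 0 of 57, against 0.160% (0.0266% and 0.133%). The saline count rose to 4 without KO saline 1, and the AngII count to 12 without KO AngII 2 and to 11 without KO AngII 4. With a library left out, groups overlap less easily for any gene. The share over all genes was not computed for these leave-outs, so the rises have no background.

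By role, all 7 genes listed under RNA processing, elongation and protein folding, with Fam210b among them, were tested. Of these Nelfcd was called lower and 0 were called higher. Over both treatments 6 of 7 were negative (median -0.11), against 9207 of all 15010 genes tested (median -0.07). Of 11 genes of metabolism, membrane traffic and proteolysis 10 were tested and 0 called (median -0.12). The transcription regulators outside the cluster (4 of 7 tested, median -0.22) and the signalling genes (5 tested, median 0.09) had 0 called. A list of other roles, among them cell division, meiosis and nucleic acid sensing, also had 0 called (3 of 6 tested, median 0.02). Of all genes tested 4.15% were called over both treatments (0.953% higher and 3.20% lower), so counts of 0 or 1 in lists this short say little. Among the regulators Tshz2, a teashirt zinc finger gene, had 10.6 ± 1.28 FPKM in wild type and 11.5 ± 2.68 in knockout (0.09 ± 0.12, adjusted p = 0.717). Edn3, which encodes the ligand endothelin 3, had 2.10 ± 0.881 and 1.88 ± 1.29 FPKM (SD, n = 10 each; -0.19 ± 0.25, adjusted p = 0.702).

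Gnas was the most abundant gene of the window, with a mean of 637 FPKM, and its total did not differ beyond the spread. It had 621 ± 130 FPKM in wild type and 611 ± 196 in knockout under saline, and 601 ± 96.9 and 716 ± 142 under AngII (SD, n = 5 each). The difference over both treatments was 0.09 ± 0.16, with an approximate 95% interval (normal quantile) from -0.22 to 0.41 (adjusted p = 0.780). The sign turned with protein-coding transcripts alone (-0.21) and with limma-voom on recovered reads (-0.14).

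The share of its starts varied by library. Transcripts from the Gs alpha start held 62.4% of the gene's FPKM, those from the exon 1A starts upstream of it 28.9%, those from the XL start 7.35% and those from the Nesp start 0.702%, with starts named by the known order of promoters in the locus. The XL start held 283, 244, 272 and 136 FPKM in WT saline 2 and WT AngII 1, 4 and 5. It held 0.413 FPKM or less in the other 16 libraries, among them all 10 knockout libraries. In the former, in the same order, the exon 1A starts held 46.8, 42.9, 57.0 and 88.1 FPKM, the lowest wild type values. The Gs alpha start held 254, 208, 280 and 265 FPKM there. The gene totals there, 591, 499, 617 and 502 FPKM, lay within the wild type range of 405 to 709. Low values also occurred without the XL start. KO AngII 2 had 45.9 FPKM from the exon 1A starts, and WT saline 4 had 266 and KO AngII 4 205 from Gs alpha. Nearly all FPKM of the XL start came from ENSMUST00000109088, which was listed at 0 in 16 libraries. That transcript shares 32% of its stretches of 50 bases with the Gs alpha transcript ENSMUST00000109087, which in turn shares 66.7% with it, and a read from a shared stretch cannot tell them apart. These patterns were noticed in the values and were not tested.

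**Figure D5:**
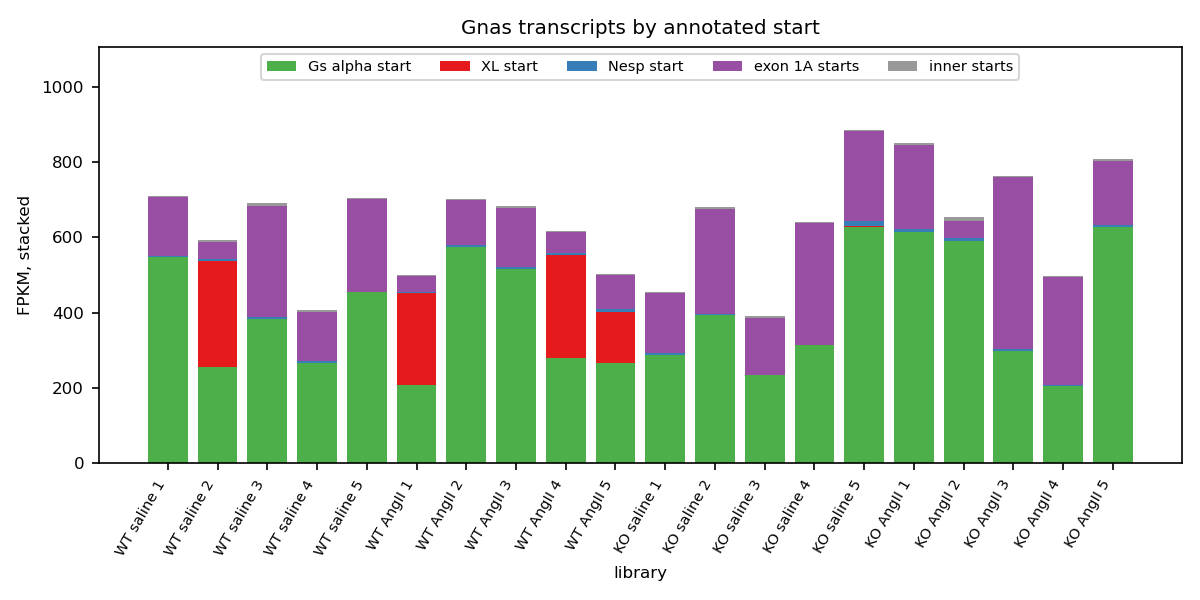
FPKM of Gnas transcripts stacked by annotated start in each of the 20 libraries. The total is similar across groups, while the XL start (red) reaches 136 to 283 FPKM in 4 wild type libraries and at most 0.413 in the other 16. In those 4 the exon 1A starts hold 42.9 to 88.1 FPKM, the lowest wild type values.

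Of 16 listed genes of Gs and cAMP signalling outside the window, all tested, 1 was called over both treatments, lower in knockout, against 4.15% of all genes, and 0 under saline or AngII by limma. Of the 16, 8 were higher and 8 lower in knockout. Pde3a, a phosphodiesterase that breaks down cAMP, had 7.12 ± 1.14 FPKM over wild type libraries and 10.6 ± 3.23 over knockout libraries (SD, n = 10 each; 0.46 ± 0.15, adjusted p = 0.0943). Adrb3, the beta-3 receptor of adipocytes, had 21.7 ± 8.40 and 11.2 ± 5.81 FPKM (-0.97 ± 0.29, adjusted p = 0.0619).

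AngII itself was not followed by a called change in the window. In wild type aorta 0 of 57 genes were called (0% of all genes, 5 of 57 at an unadjusted p under 0.05), in knockout aorta 0 of 57 (0%, 1 of 57 unadjusted), and the genotypes' responses differed at 0 of 57 (0%, 3 of 57 unadjusted), all by limma; over all genes 458, 595 and 501 were at an unadjusted p under 0.05. Zfp971 differed by -0.40 ± 0.16 and Gm14325 by -0.40 ± 0.17 between AngII and saline in wild type aorta (adjusted p = 1.00 each). Bcas1 differed by 0.51 ± 0.24 in wild type aorta (adjusted p = 1.00), and the responses of the genotypes differed there by -0.75 ± 0.34 (adjusted p = 0.995). Nelfcd differed by -0.30 ± 0.11 in knockout aorta (adjusted p = 0.991).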

How the data were processed

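The authors deposited 1 table per library with values for 126719 transcript models, read here as FPKM. The unit is not named in the labels and was taken from the values. Multiplied by transcript length, 99.3% of low values per library lay within 0.1 read of a whole multiple of 1 step, which gives the reads implied per library. The submitters' processing notes name the build mm10 and limma. What aligned and counted the reads, and whether strand was used, is not given in the sources used here. Because FPKM divides by length, short models raise a gene's sum from few reads.

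Of 110082 Ensembl transcripts 109913 matched GENCODE M21. Their FPKM were summed over 42890 genes, and 16637 unannotated models (10.6% to 12.9% of a library's FPKM) were left out. The 15010 genes that reached 1 FPKM in 5 or more libraries were tested with limma 3.58.1 in R 4.3.3 on log2(FPKM + 1), using lmFit and a trended, robust eBayes, with a mean per group over all 20 libraries, no block, 6 comparisons, two-sided, Benjamini-Hochberg adjustment over all genes, and a threshold of 0.05. The script was tested on simulated data.

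Genes were named by rule: those called, the 6 tested genes nearest to Rab22a on each side, the 8 with the highest mean, the 6 of the cluster with the highest mean and the 6 with the smallest p, the 6 outside it with the smallest p, and the 4 with the smallest p in each AngII comparison and the interaction. Genes of the role lists were named as well. For 1 called gene outside the window the values are not reported here. The window, the lists and the rule were chosen with earlier results of these data known. Alternatives were other scalings, filters, pseudocounts, variance models and groups fitted alone, a replicate block, protein-coding transcripts alone, leaving out libraries and, chosen after seeing the data, limma-voom on the recovered reads. Sequences and figures were handled in Python 3.11.15 with pandas 2.3.3, numpy 2.4.6 and matplotlib 3.10.9.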

Additional observations from a re-analysis of the deposited data

Results flagged for a closer look

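In each of the 4 groups, the highest and the lowest of 5 values were examined for 20 genes named by the rule, 80 groups in all, with a test for a value far from the others (Dixon's criterion at 95%). It marked 4 values, and chance alone marks about 5% of groups. Pmepa1 had 65.0 FPKM in KO AngII 2, where the next value was 40.2. Zbp1 had 6.80 FPKM in WT AngII 5, where the next was 3.0. Pck1 had 446 FPKM in KO saline 2, where the next was 171. Gm14296 had 1.27 FPKM in KO AngII 4, where the next was 3.21, and without that library its difference over both treatments rose from 0.39 (adjusted p = 0.106) to 0.48 (adjusted p = 0.0193).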

How the results depend on the processing

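Of 247 recomputed counts 218 stayed within 1.5 times. These include counts of 0 that stayed at 0. The counts called under saline, for AngII in each genotype and for the interaction ran from 0 to 0 with each library left out. Such counts say little about stability, so the 218 do not describe the counts above 0. Of 1349 recomputed differences of named genes 1237 kept their direction and side of the threshold, 52 lost a call, 28 gained one and 32 changed sign. Counts of genes called under AngII (2) became 4 with quantile normalization (374 of all genes), 1 with the replicate block (70), 0 with the groups fitted alone (1), 0 without both wild type libraries of low Rab22a (4) and 0 to 3 leaving out each library. Those over both treatments (4) became 7 without a filter (91 genes tested), 0 without both those libraries (167) and 1 to 10 leaving out each library. Counts of groups that did not overlap ran from 0 to 4 under saline and 7 to 12 under AngII. For the counts without a filter or with a single library left out, the share over all genes is not given here. With the replicate block Nelfcd was not called under AngII (adjusted p = 0.0506) or over both treatments (0.0558), and Atp5e was (0.0406). Same-numbered libraries deviated together (correlation over 0.1) in 7 of 20 pairs, with a range from -0.52 to 0.39, so the numbers were not taken to pair mice. Sign changes over both treatments, none in a called gene, were as follows. With quantile normalization Rbm38 was 0.07, Rtf2 0.01, Vapb 0.05 and Atp9a 0.04; with scaling in the manner of TMM Rbm38 was 0.06, Vapb 0.05 and Atp9a 0.02; with a pseudocount of 0.1 Zbp1 was -0.07. With limma-voom Zbp1 was -0.25 and Gnas -0.14, with protein-coding transcripts alone Gnas was -0.21, and without both wild type libraries of low Rab22a Rbm38 was 0.13. Leaving out each library, Zbp1 ran from -0.27 to 0.21, Rbm38 from -0.23 to 0.16, Atp9a from -0.21 to 0.08 and Gm14326 from -0.04 to 0.39. The causes were not tested. Genes under the filter, and cluster genes with a median of 160 reads, limit what depth can show.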

Other observations

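Other genes of the window showed these values over both treatments. Tubb1, the beta tubulin of platelets and megakaryocytes, had 1.23 ± 0.635 FPKM over wild type libraries and 1.95 ± 0.703 over knockout libraries (SD, n = 10 each; 0.43 ± 0.16, adjusted p = 0.147). Atp9a, a phospholipid flippase gene at the far edge before Rab22a, had 42.9 ± 9.09 and 44.5 ± 21.5 FPKM, with the widest spread in knockout aortas under saline (17.2 to 87.6). Prelid3b had 49.9 ± 5.96 and 45.0 ± 9.54 FPKM (-0.17 ± 0.12, adjusted p = 0.441). Beyond the cluster, Phactr3, a regulator of protein phosphatase 1, ran from 1.97 to 4.60 FPKM in wild type and from 0.532 to 10.1 in knockout (0.20 ± 0.34, adjusted p = 0.776), so the knockout values surrounded the wild type ones. Ppp1r3d, a glycogen-targeting subunit of the same phosphatase, differed by 0.05 ± 0.14 (adjusted p = 0.873). Gm14326 of the cluster was listed at 0.169 FPKM in WT AngII 2 and 0.177 in KO saline 4, against 2.14 to 8.93 in the other 18 libraries.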
